A study of Mus musculus with 10 samples.

Results

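The genes described here were 9 heat shock proteins and co-chaperones, chosen by name from 24453 genes in the deposited table. They are the heat-inducible HSP70 pair Hspa1a and Hspa1b, their co-chaperones Dnajb1 and Hsph1, the cytosolic HSP90 pair Hsp90aa1 and Hsp90ab1, the constitutive HSP70 Hspa8, the endoplasmic reticulum HSP70 Hspa5 and the mitochondrial chaperonin Hspd1. All 9 were in the table and all 9 had at least 10 RPM (numbers of reads scaled to the same total in every library) in each of 10 libraries. The RNA came from microglia, the brain's own macrophages, pulled from dissociated C57bl6 mouse brains with magnetic beads. The study set 3 libraries from mice aged 15 months, called aged, against 3 from mice aged 10 weeks, called young. It also set 2 libraries labelled Rab7 deltaMG against 2 labelled Rab7 control, all 4 from mice aged 3 months. The series describes the deltaMG animals as null mutants of Rab7, a GTPase that directs traffic from late endosomes to lysosomes. All mice were untreated and kept under standard housing. The labels do not give the driver that removes Rab7, the sex of the mice, or whether a library came from 1 animal or several, so p-values measure a spread between libraries that may be technical in part.

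Heat shock proteins are chaperones that hold or refold proteins as they unfold. HSP70 binds exposed hydrophobic stretches, a DNAJ co-chaperone delivers the client and speeds ATP hydrolysis, an HSP110 such as Hsph1 exchanges the nucleotide, and HSP90 takes over a part of the clients for late folding. Heat, oxidative stress or damaged protein frees the transcription factor HSF1, which then binds heat shock elements in front of the inducible genes; in microglia the inducible members are also known to respond to tissue dissociation.

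Rab7 (chromosome 6, GRCm38) was not lower in the libraries labelled Rab7 deltaMG. It was measured at 72.2 and 79.4 RPM there, against 64.2 and 67.5 RPM in those labelled Rab7 control, with a log2 fold change of 0.20 (SE 0.20, limma adjusted p = 0.668). The labels do not say which part of the gene is altered, and a value for the whole gene need not show it, so these groups are called labelled deltaMG and labelled control below. Xist, the RNA of the inactive X chromosome, lay between 0.127 and 0.940 RPM in aged libraries, against 1715 to 1771 RPM in young ones. The sum of 4 Y-linked genes was 35.7 to 48.7 RPM in aged libraries and at most 0.288 RPM in young ones, so age and sex cannot be told apart in that comparison. Each labelled Rab7 library held both kinds of RNA, at levels between those of aged and young libraries. Each thus mixed male and female RNA, in unequal amounts, and held RNA of more than a single animal. Xist was at 1171 and 1562 RPM in labelled deltaMG, against 1410.1 and 924 RPM in labelled control, and the Y-linked sum was 20.3 and 9.11 RPM in labelled deltaMG, against 19.3 and 25.8 RPM in labelled control. The 13 microglia markers summed to 3966 to 4433 RPM in aged libraries, against 6065 to 6816 RPM in young ones, with 7 of 13 called lower. They summed to 5099 to 6579 RPM in labelled deltaMG and to 5768 to 6173 RPM in labelled control, where Cx3cr1 was called higher in labelled deltaMG (log2 1.41, limma adjusted p = 0.000158) and Trem2 lower (log2 -0.68, limma adjusted p = 0.0420). Cx3cr1 was also called in the difference between the effects of both comparisons. Astrocyte markers summed to 25.9 to 55.1 RPM, with Gfap, Aldh1l1 and Gja1 under 1 RPM in every library, and neuronal markers to 1.48 to 8.15 RPM. The step between low values put 6098155 to 9907348 reads behind the scaling. Only 1284384 to 1855026 of them lay in genes of the deposited table, whose values summed to 187240 to 235465 RPM per library. The members held from 72 estimated reads for Hsph1 to 4172 for Hspa1a in a library.

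In the libraries labelled deltaMG, the inducible HSP70 genes and Dnajb1 were higher than in those labelled control. Hspa1a was 2.25-fold, Hspa1b 2.36-fold and Dnajb1 1.73-fold higher. These 3 of 9 members passed the limma test at an adjusted p under 0.05, where 1.20% of 4151 genes tested were called higher and 2.58% lower. Hspa1a averaged 318 RPM in labelled deltaMG, 139 RPM in labelled control and 273 RPM in young libraries. In the same order Hspa1b averaged 95.7, 39.8 and 84.5 RPM, and Dnajb1 116, 66.2 and 89.3 RPM. Labelled control thus also lay below young for these genes, a gap that was not tested. In aged against young libraries 0 of 9 members passed, against a background of 3.16% called higher and 2.99% called lower, although all 9 had positive fold changes. By limma's unadjusted p under 0.05 the counts were 6 of 9 members in the ageing comparison, where 894 of 4151 genes reached it, and 6 of 9 in the labelled Rab7 comparison, where 780 did. The median log2 fold change of the members was 0.34 in aged against young libraries, beside -0.05 over all genes tested, and 0.55 in labelled deltaMG against labelled control, beside -0.02. The test of the difference between both effects called 1 member, Hspa1b, where 4.79% of all genes tested were called in either direction.

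**Figure D1:**
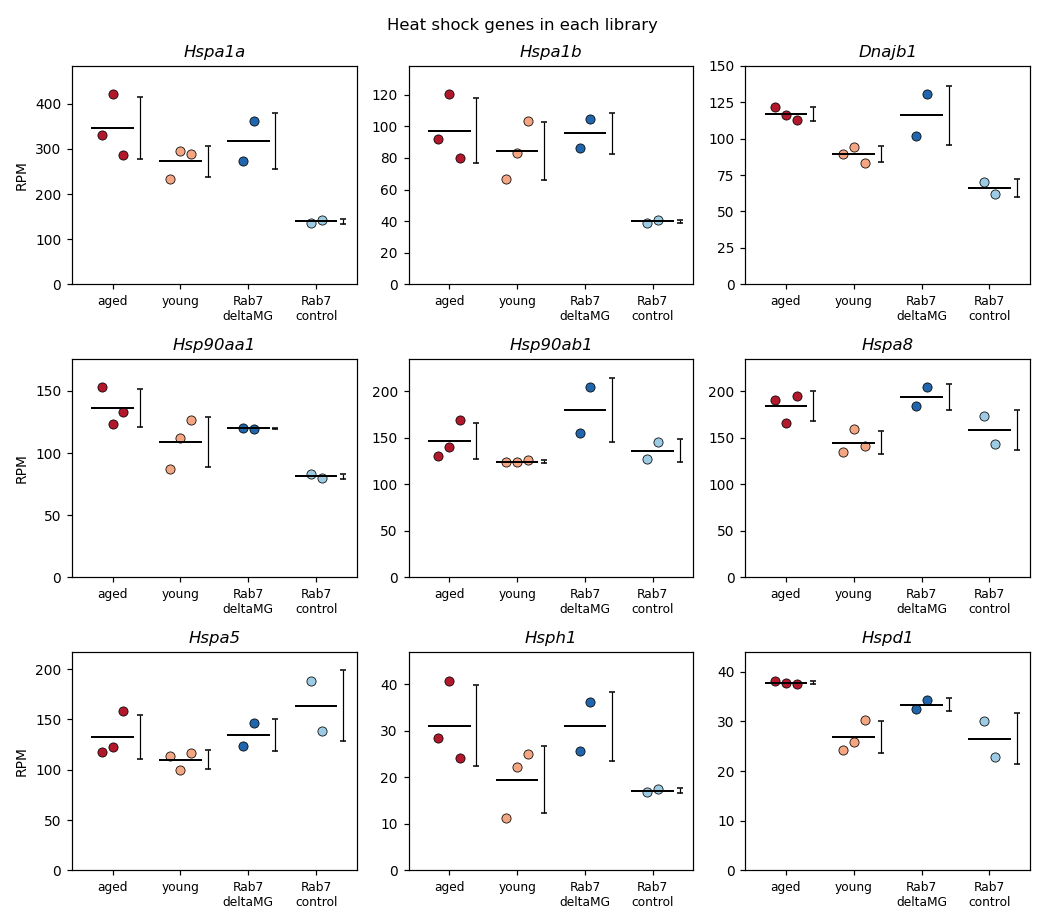
Level of each of the 9 genes in RPM (vertical axis, from 0) in every library of the aged (3), young (3), Rab7 deltaMG (2) and Rab7 control (2) groups, as labelled. Points are libraries, horizontal lines group means and whiskers 1 SD; the control points of Hspa1a, at 136 and 143 RPM, lie below all others.

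Hspa1a (chromosome 17, 34969190 to 34972156, minus strand, GRCm38) and Hspa1b (chromosome 17, 34956436 to 34959238, minus strand) are both single-exon genes, 9951 bases apart, that encode the stress-inducible cytosolic HSP70. Their coding sequences were identical at 1915 of 1926 aligned bases (99.4%), and 82.3% of the 50-base windows of Hspa1b were found unchanged in Hspa1a. Reads from such windows cannot be assigned to either gene, so the split between them is uncertain and their sum is given as well. The sequence in front of the pair is shown because these members had the largest fold changes in the labelled Rab7 comparison, and because the duplication reaches into it. The 250 bases before each RefSeq start, on GRCm38.p6 and written 5′ to 3′ on the minus strand, are chr17:34972157-34972406 for Hspa1a and chr17:34959239-34959488 for Hspa1b. Capitals mark the match to the heat shock element GAANNTTC.
Hspa1a: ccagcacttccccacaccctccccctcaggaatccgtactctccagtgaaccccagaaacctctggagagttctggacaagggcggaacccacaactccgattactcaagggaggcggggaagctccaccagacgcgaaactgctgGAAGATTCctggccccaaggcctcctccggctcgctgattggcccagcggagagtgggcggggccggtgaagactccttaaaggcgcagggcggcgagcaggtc
Hspa1b: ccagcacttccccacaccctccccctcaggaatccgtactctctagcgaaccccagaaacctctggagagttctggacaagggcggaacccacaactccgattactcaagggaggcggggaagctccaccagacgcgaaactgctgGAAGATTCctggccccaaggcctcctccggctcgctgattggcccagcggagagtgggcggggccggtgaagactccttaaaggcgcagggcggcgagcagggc
The 2 stretches were identical at 247 of 250 bases (98.8%), and the 8-base match GAAGATTC began at position -104 in both, where position 1 is the first base transcribed. GAANNTTC and TTCNNGAA, the 2 ways in which neighbouring 5-base units of a heat shock element can face each other, each read the same on both strands. Over 32851 RefSeq promoter windows of 300 bases, which hold the 250 bases before a start and the 50 after it, GAANNTTC was found in 7.86% and TTCNNGAA in 8.52%. The 300-base windows of Hspa1a and Hspa1b each held the same single match.

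Hspa1a was the member with the highest level per transcript length, at a mean of 93.4 RPM per kb over the 10 libraries. In labelled control, though, it averaged 47.0 RPM per kb, below Hspa8 at 66.2 and Hsp90ab1 at 54.0. Hspa1a was measured at 273 and 362 RPM in the libraries labelled deltaMG, against 136 and 143 RPM in those labelled control. The ranges did not overlap, and both control libraries were lower than the other 8. The log2 fold change was 1.17 (SE 0.19, 95% interval 0.76 to 1.58, limma adjusted p = 0.00255). Hspa1a was at 331, 421 and 286 RPM in aged libraries, against 234, 295 and 289 RPM in young ones. These ranges overlapped, with aged replicate 3 below 2 of the 3 young libraries, and the log2 fold change was 0.33 (SE 0.16, limma adjusted p = 0.232).

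Hspa1b followed its neighbour at a lower level, at a mean of 29.1 RPM per kb. It was at 86.6 and 105 RPM in the libraries labelled deltaMG, against 38.9 and 40.6 RPM in those labelled control, again without overlap. The log2 fold change was 1.24 (SE 0.21, 95% interval 0.79 to 1.69, limma adjusted p = 0.00331). In the ageing comparison Hspa1b was at 92.0, 120.3 and 79.7 RPM in aged libraries, against 66.7, 83.5 and 103 RPM in young libraries. The ranges overlapped and the log2 fold change was 0.20 (SE 0.17, limma adjusted p = 0.559). The effect in the labelled Rab7 comparison exceeded that in the ageing comparison by 1.04 on the log2 scale (SE 0.27, limma adjusted p = 0.0422) for Hspa1b and by 0.84 (SE 0.25, limma adjusted p = 0.0653) for Hspa1a. That call for Hspa1b was lost without aged replicate 1 or young replicate 2 or 3, at limma adjusted p of 0.0726 to 0.0891. It was also lost when any 1 of the 4 labelled Rab7 libraries was left out, at differences of 0.90 to 1.17.

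Summed over both genes, the pair was at 360.0 and 467 RPM in the libraries labelled deltaMG, against 175 and 183 RPM in those labelled control, a 2.28-fold difference (log2 1.19, SE 0.19, limma adjusted p = 0.00241). In aged libraries the sum was 423, 541 and 366 RPM, against 300.2, 379 and 393 RPM in young libraries, with a log2 fold change of 0.30 (limma adjusted p = 0.293). The difference between these effects was 0.89 for the sum (limma adjusted p = 0.0547). Hspa1b made up 21.8% to 22.2% of the pair in aged, 22.0% to 26.3% in young, 22.5% to 24.1% in labelled deltaMG and 22.1% to 22.3% in labelled control libraries. The pair formed a smaller part of the summed signal of all 9 members in the libraries labelled control, at 20.2% and 23.1%, than in every other library, where it was 30.6% to 42.1%. With only 2 libraries in each labelled Rab7 group, leaving out 1 left a lone library in its group. Without control replicate 1 the calls of Hspa1a and Hspa1b were lost, at log2 fold changes of 1.13 and 1.21. Without deltaMG replicate 2 that of Hspa1b was lost, at 1.10. A call lost in such a fit does not show that 1 library carried it.

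The summed markers of blood cells also lay higher in the libraries labelled deltaMG. The 14 neutrophil genes, each detected in some library, summed to 1981 and 1284 RPM in the libraries labelled deltaMG, against 742 and 497 RPM in those labelled control. The sums were 1801, 1080 and 4590 RPM in aged libraries, against 1052, 1535 and 599 RPM in young ones. Of the 13 neutrophil genes tested, Cxcr2 and Mxd1 were called higher in each comparison. In aged replicate 3, the library with the highest neutrophil sum, Hspa1a, Hspa1b, Dnajb1 and Hsph1 were at their lowest level of the aged group. Hsp90ab1, Hspa8 and Hspa5 were at their highest, and Hspd1 was at 37.6 RPM there and in aged replicate 2. The 8 monocyte genes summed to 251 and 186 RPM in labelled deltaMG, against 104 and 64.9 RPM in labelled control. The neutrophil score of each library was also fitted as a covariate. The limma log2 fold change between labelled deltaMG and labelled control was then 1.49 for Hspa1a (adjusted p = 1.58e-05) and 1.66 for Hspa1b (adjusted p = 4.94e-06), larger than without it. Dnajb1 stayed at 0.79 (limma adjusted p = 0.0162), and Hspa8 and Hsp90ab1 became smaller, at 0.14 and 0.33. The neutrophil sums of the labelled Rab7 groups did not overlap, so this fit cannot fully separate the score from the label. The same covariate brought Hspa1a past the threshold in the ageing comparison, at 0.56 (limma adjusted p = 0.0453), as it did Hsph1. The limma adjusted p became larger there for Dnajb1 (0.187), Hspd1 (0.130) and Hspa8 (0.466). The ribosomal RNA precursor Rn45s was at 24899 and 26807 RPM in labelled deltaMG, against 20533 and 19084 RPM in labelled control, and astrocyte markers summed to 33.9 and 40.6 RPM in labelled deltaMG, against 55.1 and 48.9 RPM in labelled control; the part of neither was tested. The 23 immediate early genes, which cells transcribe soon after a stimulus, summed to 2484 and 2722 RPM in labelled deltaMG and to 2121 and 1926 RPM in labelled control. They summed to 3066, 2402 and 3375 RPM in aged libraries, against 2356, 2859 and 2433 RPM in young ones, and their part in the results was not tested. In bulk RNA, fewer cells of a type and less RNA per cell cannot be told apart.

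**Figure D2:**
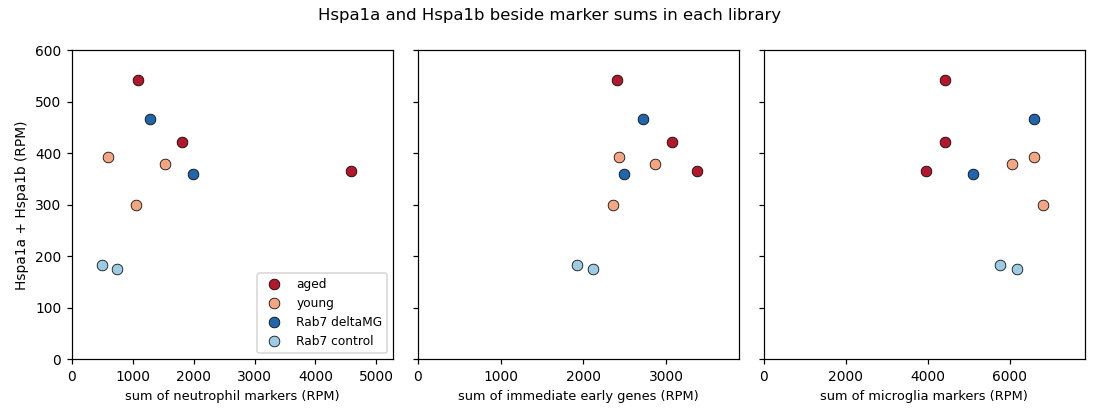
Sum of Hspa1a and Hspa1b (vertical axis, RPM) against the summed neutrophil markers, immediate early genes and microglia markers (horizontal axes, RPM), 1 point per library, coloured by labelled group. Both control libraries, at 175 and 183 RPM, lie at the bottom of each panel, and aged replicate 3 lies at the far right of the neutrophil panel with 366 RPM.

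Dnajb1 (chromosome 8, 83608193 to 83612653, plus strand), the DNAJ co-chaperone that activates inducible HSP70, was the third member called. It was at 102 and 130.5 RPM in the libraries labelled deltaMG, against 70.6 and 61.9 RPM in those labelled control, with no overlap and a log2 fold change of 0.79 (SE 0.15, 95% interval 0.47 to 1.12, limma adjusted p = 0.00749). In aged libraries it was at 122, 116 and 113 RPM, against 89.7, 94.6 and 83.6 RPM in young libraries. All aged libraries lay above all young ones, but the log2 fold change of 0.39 (SE 0.12) did not pass (limma adjusted p = 0.0789). It passed in this comparison under rescaling to equal totals (0.41, limma adjusted p = 0.0408) and under 3 further settings. In the labelled Rab7 comparison the call was lost in 3 fits that left a lone library in a group. The log2 fold change was 0.70 without control replicate 2, 0.89 without control replicate 1 and 0.62 without deltaMG replicate 2. The difference between the effects was 0.41 (limma adjusted p = 0.290).

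Hsph1 (chromosome 5, 149614287 to 149636376, minus strand), the HSP110 that exchanges the nucleotide on HSP70, had the lowest level per length of the 9, at 6.52 RPM per kb. It was at 25.7 and 36.2 RPM in the libraries labelled deltaMG, against 16.8 and 17.5 RPM in those labelled control. The ranges lay apart, yet the log2 fold change of 0.80 (SE 0.31, 95% interval 0.13 to 1.46) did not pass (limma adjusted p = 0.173). Its levels of 28.4, 40.8 and 24.1 RPM in aged libraries, against 11.3, 22.1 and 24.9 RPM in young libraries, gave the largest fold change of the members in that comparison, 0.69 on the log2 scale (SE 0.25, limma adjusted p = 0.126), with overlapping ranges. Without young replicate 1 it was 0.36, below the 0.42 of Hspd1 in the same fit. With the neutrophil score as a covariate both passed, at 1.29 (adjusted p = 0.0112) in labelled deltaMG against labelled control and at 1.03 (adjusted p = 0.0121) in aged against young libraries. Within the first of the RefSeq promoter windows of Hsph1 a three-unit heat shock element, searched for as GAANNTTCNNGAA or TTCNNGAANNTTC, was present as the 13 bases TTCTGGAAAGTTC from position 37; 0.603% of all promoter windows held one.

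Hsp90aa1 (chromosome 12, 110690605 to 110702728, minus strand) encodes the more stress-responsive of both cytosolic HSP90 proteins, and Hsp90ab1 (chromosome 17, 45567775 to 45573271, minus strand) the more constant one. Hsp90aa1 was at 120.1 and 119 RPM in the libraries labelled deltaMG, against 82.9 and 80.0 RPM in those labelled control, with a log2 fold change of 0.55 (SE 0.17, limma adjusted p = 0.0921). Both control libraries were again lower than the other 8. In aged libraries it was at 153, 123 and 133 RPM, against 86.8, 112 and 127 RPM in young libraries, with overlap and a log2 fold change of 0.34 (SE 0.14, limma adjusted p = 0.173). Hsp90ab1 was at 155 and 204 RPM in labelled deltaMG, against 127 and 145 RPM in labelled control (log2 0.39, SE 0.16, limma adjusted p = 0.209). It was at 131, 140 and 168 RPM in aged libraries, against 123, 124 and 126 RPM in young libraries (log2 0.22, SE 0.13, limma adjusted p = 0.365). For Hsp90ab1 the ranges lay apart in both comparisons, by margins of a few RPM between aged and young.

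Hspa8 (chromosome 9, 40800984 to 40810087, plus strand), the constitutive cytosolic HSP70, was the second most abundant member per length, at 70.7 RPM per kb. It was at 184 and 204 RPM in the libraries labelled deltaMG, against 173 and 143 RPM in those labelled control (log2 0.30, SE 0.15, 95% interval -0.02 to 0.62, limma adjusted p = 0.310). In aged libraries it was at 191, 166 and 195 RPM, against 135, 159 and 141 RPM in young libraries (log2 0.34, SE 0.12, 95% interval 0.08 to 0.60, limma adjusted p = 0.117). The ranges lay apart in both comparisons without passing the test. Its fold change between labelled deltaMG and labelled control was 0.30 on the log2 scale beside 1.19 for the inducible pair; the coding sequence of Hspa8 was 73.9% identical to that of Hspa1a, with no shared stretch of 50 bases.

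Hspd1 (chromosome 1, 55077835 to 55088243, minus strand), the chaperonin of the mitochondrial matrix known as HSP60, had the most even aged group of all members. It was at 38.2, 37.6 and 37.6 RPM in aged libraries, against 24.3, 25.9 and 30.4 RPM in young libraries, without overlap. The log2 fold change was 0.49 (SE 0.14, 95% interval 0.18 to 0.79) and its limma adjusted p of 0.0572 was the lowest among the members in that comparison. It was at 32.5 and 34.3 RPM in the libraries labelled deltaMG, against 30.2 and 22.8 RPM in those labelled control (log2 0.33, SE 0.17, limma adjusted p = 0.324). Annotated exons of Hspd1 and of its partner gene Hspe1, on the other strand, overlap by 112 bases, and Hspe1 averaged 3.02 RPM and was not tested. Of the RefSeq promoter windows of Hspd1, the first held no match to any motif searched, and the other held TTCCGGAAGGTTCTAGAA from position -144, in which 2 three-unit heat shock elements overlap.

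Hspa5 (chromosome 2, 34771970 to 34777547, plus strand), the endoplasmic reticulum HSP70 known as BiP, was the 1 member with a negative fold change in the labelled Rab7 comparison. It was at 123 and 146 RPM in the libraries labelled deltaMG, against 189 and 138 RPM in the libraries labelled control, with overlap and a log2 fold change of -0.27 (SE 0.18, 95% interval -0.66 to 0.12, limma adjusted p = 0.478), which was -0.045 without control replicate 1 and -0.49 without control replicate 2. In aged libraries it was at 118, 122 and 158 RPM, against 113, 99.5 and 117 RPM in young libraries (log2 0.26, SE 0.15, limma adjusted p = 0.344). The difference between the effects was -0.53 (limma adjusted p = 0.248). Its RefSeq promoter window held no match to GAANNTTC or TTCNNGAA and 1 to the endoplasmic reticulum stress element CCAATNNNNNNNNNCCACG, searched on both strands. That match, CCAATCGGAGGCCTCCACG from position -65, is of a kind found in 0.119% of all promoter windows.

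**Figure D3:**
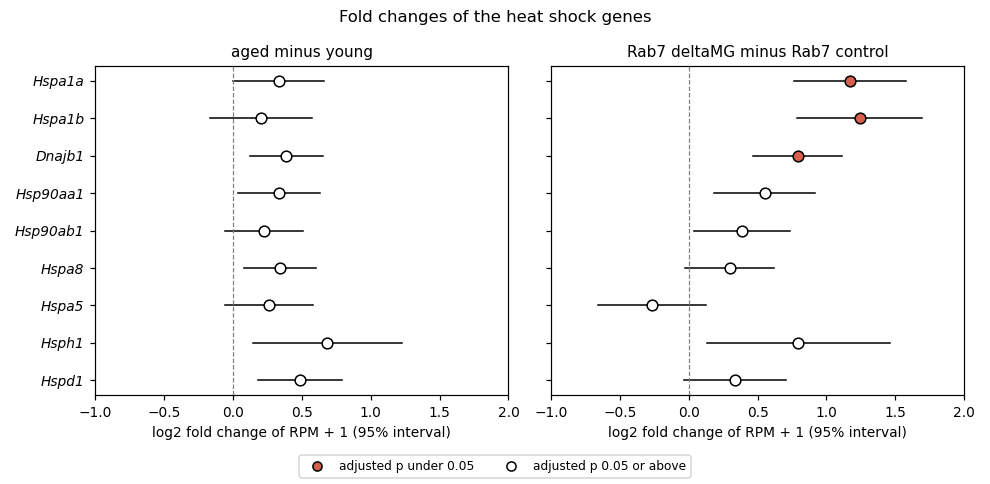
Log2 fold change of RPM + 1 (horizontal axis) with its 95% interval for each of the 9 genes, aged minus young on the left and labelled Rab7 deltaMG minus labelled Rab7 control on the right. Filled points passed at a limma adjusted p under 0.05, which were Hspa1a at 1.17, Hspa1b at 1.24 and Dnajb1 at 0.79 on the right and none of 9 on the left; Hspa5 at -0.27 is the one point left of 0.

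Counted by ranges alone, 8 of 9 members lay higher without overlap in labelled deltaMG than in labelled control, where 25.2% of all genes tested did. In aged against young libraries 5 of 9 did so, Dnajb1, Hsp90ab1, Hspa8, Hspa5 and Hspd1, where 8.41% of all genes did. The labelled control group had the lowest mean of the 4 groups for 6 members, Hspa1a, Hspa1b, Dnajb1, Hsp90aa1, Hsph1 and Hspd1. Aged libraries had the highest mean for 6 members. For Hspa1a and Hspa1b the order of means was labelled control, young, labelled deltaMG and aged; labelled control and young lay apart there, and the ranges of each later pair of neighbours overlapped. For Hspa8 the ranges of all neighbouring groups overlapped.

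The inducible members and Hspa5 had unlike patterns across the 10 libraries. The 10 pairs among Hspa1a, Hspa1b, Dnajb1, Hsp90aa1 and Hsph1, a set chosen after their values were seen, had Pearson r of 0.70 to 0.98 on log2(RPM + 1), while the 8 pairs with Hspa5 had r of -0.52 to 0.40. These points are the same 10 libraries in 4 groups and share library scaling, so the values are a description. The highest r, 0.98, was that of Hspa1a with Hspa1b, and may reflect how reads from their shared stretches were assigned. Among 686 other genes whose mean reached 50 RPM, those with the pattern most like Hspa1a included Hspa1b (r = 0.979), Ttr (0.944), Dnajb1 (0.896) and Golgb1 (0.873). The genes most like Hsp90aa1 were Whsc1l1 (0.855), Hspa1b (0.830), Hspa1a (0.827), Ttr (0.827) and Fyb (0.824). For Hspd1 they were Mcl1 (0.857), the co-chaperone Dnaja1 (0.854), the polyubiquitin gene Ubb (0.833), Hsp90aa1 (0.805) and Neat1 (0.798). Those most like Hspa5 included Rhoa (0.948), Wapl (0.927), Ywhab (0.900) and Fcer1g (0.888).

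Of 43 further genes of the HSP70 and HSP90 machinery, most of them cytosolic, 19 were abundant enough to be tested. Between labelled deltaMG and labelled control limma called 0 higher and 1 lower, where 1.20% and 2.58% of all genes were. The median log2 fold change was -0.10. At limma's unadjusted p under 0.05 it was 4 of 19, 3 higher and 1 lower, where 18.8% of all genes were. The one gene with an adjusted p under 0.05 was Hspa12a, a distant relative of HSP70 (log2 -1.43, limma adjusted p = 0.0423). It was at 4.18 and 7.96 RPM in labelled deltaMG, against 16.9 and 17.9 RPM in labelled control. That call was lost without young replicate 1 (limma adjusted p = 0.0592). It was also lost without deltaMG replicate 1, a fit with a lone library in that group, at a log2 fold change of -1.04. Hspa12a was tested only because the libraries labelled control reached 10 RPM, so this call is not independent of the filter. With the neutrophil score as a covariate its limma adjusted p was 0.182. The HSP70 co-chaperone Bag3, a known target of HSF1, was at 15.9 and 17.2 RPM in labelled deltaMG, against 8.02 and 9.31 RPM in labelled control, and did not pass (log2 0.86, limma adjusted p = 0.0588). The DNAJ co-chaperones Dnaja1 (log2 0.57, limma adjusted p = 0.0856) and Dnajb4 (log2 0.66, limma adjusted p = 0.120) did not pass there either.

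In aged against young libraries the same 19 genes had 1 called higher and 1 called lower, where 3.16% and 2.99% of all genes were, and a median of 0.13. Counts of 1 in 19 do not set the list apart from all genes. At limma's unadjusted p under 0.05 it was 5 of 19, 4 higher and 1 lower, where 21.5% of all genes were. Dnaja1, a DNAJ partner of Hspa8, rose 1.62-fold. It was at 65.8, 75.9 and 57.5 RPM in aged libraries, against 34.2, 41.5 and 46.2 RPM in young libraries (log2 0.70, SE 0.14, limma adjusted p = 0.0102; 0.0661 without young replicate 1). Fkbp5, an HSP90 co-chaperone and target of glucocorticoids, was at 14.9, 16.8 and 21.3 RPM in aged libraries, against 38.0, 48.9 and 22.7 RPM in young libraries. It fell by 0.96 on the log2 scale, with a limma adjusted p of 0.0496 that was above 0.05 in 8 of 10 fits that each left out 1 library, at 0.0516 to 0.171. Hspa12a was at 4.23, 8.18 and 6.10 RPM in aged libraries, against 3.15, 1.97 and 3.45 RPM in young libraries (log2 0.88, limma adjusted p = 0.0939).

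**Figure D4:**
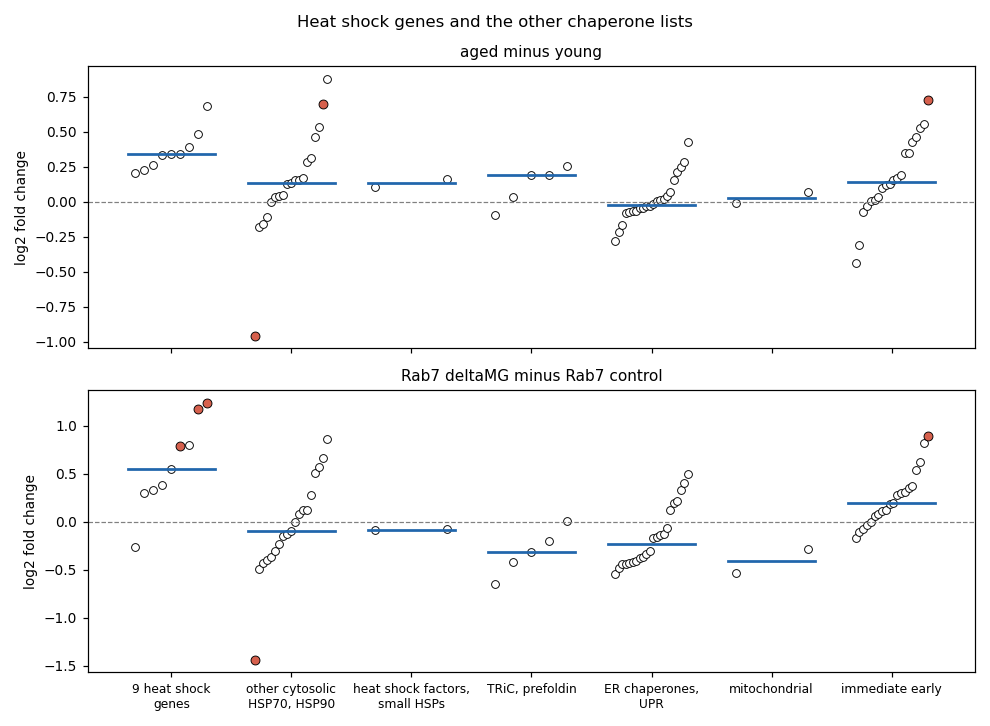
Log2 fold change (vertical axis) of the 9 heat shock genes and of each tested gene of 6 further lists (horizontal axis), aged minus young above and labelled Rab7 deltaMG minus labelled Rab7 control below. Circles are genes, filled where the limma adjusted p was under 0.05, and blue lines are medians, which for the 9 genes stood at 0.34 and 0.55.

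The other folding machines had no called gene in either comparison. Of 27 genes of the endoplasmic reticulum chaperones and unfolded protein response, 22 were tested, and their median log2 fold change was -0.24 in labelled deltaMG against labelled control and -0.02 in aged against young libraries. Values in labelled deltaMG against labelled control were -0.54 for the lectin chaperone Canx (limma adjusted p = 0.102), -0.48 for its partner Calr (0.188) and 0.41 for the transcription factor Xbp1 (0.212). The cytosolic chaperonin TRiC and prefoldin had 5 of 14 genes tested, with medians of -0.32 and 0.19 in the same order of comparisons. Of 10 mitochondrial chaperones and proteases 2 were tested, and Hspa9, the mitochondrial HSP70, was at 9.20 and 11.6 RPM in labelled deltaMG, against 15.9 and 14.8 RPM in labelled control (limma adjusted p = 0.203). Of 13 heat shock factors and small heat shock proteins only Hsf1 and Hsbp1 were abundant enough to be tested, and neither passed in either comparison. Over these 4 lists limma called 0 of 31 genes in each comparison. At limma's unadjusted p under 0.05 it was 8 of 31 in labelled deltaMG against labelled control, 1 higher and 7 lower. Of all genes 18.8% were, in either direction. In aged against young libraries it was 1 of 31, 1 higher and 0 lower, where 21.5% of all genes were. Scaling to equal totals, fitting the labelled Rab7 groups alone and array weights each called 1 endoplasmic reticulum gene in labelled deltaMG against labelled control.

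Of 23 immediate early genes 20 were tested. Nr4a1, an orphan nuclear receptor, was called higher in both comparisons and was the only one of the list called. Of all genes 1.20% were called higher in the labelled Rab7 comparison and 3.16% in the ageing comparison. A count of 1 in 20 does not set the list apart from all genes. Nr4a1 was at 28.6 and 27.2 RPM in labelled deltaMG, against 16.3 and 12.97 RPM in labelled control (log2 0.89, limma adjusted p = 0.0337). It was at 37.6, 25.3 and 37.2 RPM in aged libraries, against 17.3, 22.3 and 19.0 RPM in young libraries (log2 0.73, limma adjusted p = 0.0251). With the neutrophil score as a covariate neither passed (limma adjusted p = 0.232 and 0.175). Leaving out any one of the 4 labelled Rab7 libraries also ended the call there, at log2 fold changes of 0.73 to 1.05. In the ageing comparison leaving out aged replicate 1 or 3 or young replicate 1 or 3 did so (limma adjusted p = 0.0716 to 0.117). The phosphatase gene Dusp1 averaged 248 RPM in labelled deltaMG and 140 RPM in labelled control (log2 0.82, limma adjusted p = 0.0533). The median of the list was 0.19 in labelled deltaMG against labelled control and 0.14 in aged against young libraries.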

How the data were processed

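RNA of magnetically isolated microglia was amplified with the Ovation RNA-Seq System V2 and made into Ion Xpress Plus Fragment libraries, per the labels' protocols. GRCm38, mm10 and FastQC are named in the submitters' processing notes. Which aligner, counter, annotation, strand setting and normalisation were used is not given in the sources used here, and reads of genes that overlap on opposite strands may be mixed. The authors' deposited values were taken as RPM, since low values in a library were mostly whole multiples of 1 step, on top of a constant of 0.0001. A step corresponded to 0.101 to 0.164 RPM, and 95.2% to 95.9% of low values were within 0.1 of a whole read. The other values were fractions, so no count model was used.

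The test covered genes that reached 10 RPM in 2 or more of the 10 libraries, as log2(RPM + 1), with limma 3.58.1 in R 4.3.3. The 4 groups shared 1 estimate of the spread and a prior variance that followed the mean. Contrasts set aged against young libraries and labelled deltaMG against labelled control, and the second effect against the first. A call was a Benjamini-Hochberg adjusted p under 0.05 over all 4151 genes tested. Adding 1 before the logarithm makes fold changes of low genes smaller. The fit was tested on simulated data.

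All 9 members were named. From each further list the text named called genes and otherwise some of the 4 with the smallest p, and for 4 members the 5 genes with the most similar pattern, some of which are not reported here. The members and lists were chosen with earlier results of these data known. Levels per kb used the longest coding transcript in GENCODE M21. Promoter windows, 250 bases before and 50 after a start, came from RefSeq on GRCm38.p6 and matched 6 of the 9 members, namely Hspa1a, Hspa1b, Dnajb1, Hspa5, Hsph1 and Hspd1. Motifs were searched by letters alone, and neither heat shock form was found in the windows of Dnajb1. Alternatives covered the filter, pseudocount, scaling, which libraries were fitted, the replicate block, the prior variance, weights, a neutrophil score, the summed HSP70 pair, voom on estimated reads and each library left out. Figures were drawn with matplotlib 3.10.9.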

Additional observations from a re-analysis of the deposited data

How the results depend on the processing

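Of 800 refitted fold changes of the members and of the called list genes, 709 kept their direction and side of the threshold. Of the others 60 were lost, 22 were gained and 9 turned sign. Leaving out a library of the other comparison left a fold change as it was, so these counts do not measure stability. The ageing comparison called 0 members as reported and 0 in each fit that left out 1 library, with the replicate block, under the other pseudocounts and with voom. It called 1 under a filter of 50 RPM in 3 libraries (Dnajb1), 3 under median-of-ratios scaling and under equal totals (Dnajb1, Hspa8 and Hspd1), 2 under quantile normalization (Dnajb1 and Hspa8), 2 with array weights (Hsp90aa1 and Hspd1) and 2 with the neutrophil score (Hspa1a and Hsph1). The labelled Rab7 comparison called 3 members as reported, 5 when its groups were fitted alone (Hsp90aa1 and Hsph1 added), 2 with the replicate block (Dnajb1 lost, adjusted p = 0.0637) and 0 to 3 with each library left out, 0 without control replicate 1. The log2 fold change of Hspa1a then lay between 0.97 and 1.37, of Hspa1b between 1.10 and 1.38 and of Dnajb1 between 0.62 and 0.97. In that comparison array weights also called Hsp90aa1 (limma adjusted p = 0.0415), and the neutrophil score also called Hsph1 (limma adjusted p = 0.0112). The difference between the effects called 1 member as reported. It called 0 under median-of-ratios scaling, equal totals, quantile normalization, the replicate block, a constant prior variance, the summed pair and voom, 2 under a robust prior variance, array weights and the neutrophil score, and 0 to 2 with each library left out. The sign of that difference turned with libraries left out for Hsp90ab1 (-0.032 to 0.36), Hspa8 (-0.18 to 0.091), Hsph1 (-0.13 to 0.44) and Hspd1 (-0.34 to 0.043). The causes were not tested. Calls over all genes split 131 higher and 124 lower in aged against young libraries, and 234 and 93 under median-of-ratios scaling; in labelled deltaMG against labelled control they split 50 and 107, and 94 and 131. The filter of 50 RPM left out Hsph1 and Hspd1, and Hspa12a was not tested without either control library. In the ageing comparison deviations of same-numbered libraries correlated at -0.14, -0.24 and -0.39. Replicate numbers did not pair the libraries there, so a call lost under the replicate block does not show a weaker effect. In the labelled Rab7 comparison same-numbered libraries correlated at 0.12 and the others at -0.12. With 2 libraries per group these are the same value with opposite signs and cannot show whether the libraries were paired. With 2 libraries in each labelled Rab7 group, a lone library left in a group was assumed to vary like the others. A call lost in such a fit does not show that 1 library carried it. Counts of reads set a further limit for Hsph1, with 72 estimated reads in its lowest library.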
